A study of Mus musculus with 48 samples.

Results

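The genes described here encode the NF-kB transcription factors and the proteins that hold them back or switch them on: the subunits Nfkb1, Nfkb2, Rel, Rela and Relb, the IkB-family genes Nfkbia, Nfkbie and Nfkbiz, the deubiquitinase gene Tnfaip3, and the paracaspase gene Malt1. They were taken by gene symbol from the count table, in which they are 10 of 51789 genes. Malt1 was selected on a measured value, its difference between knockout and wild-type cells in M2 macrophages. That difference, and every comparison of a knockout with a wild-type M2 group, is therefore given as values with no test, and Malt1 itself is not tested in any comparison with an M2 group.

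RNA of mouse macrophages was sequenced from the 3′ end in 48 libraries, 3 for each of 16 groups, made up of 8 populations that each received vehicle (DMSO) or 10 µM AP-3-84 for 4 h. AP-3-84 is a compound that the labels name by its code only. The ascites population was F4/80-positive cells, isolated with magnetic beads, from mice of the B6(Cg)-Tyrc-2J/J background 45 days after injection of ID8 ovarian tumour cells, and the thioglycollate population came from wild-type C57BL/6 mice 4 days after 1 ml of 3% thioglycollate. The other 6 populations were macrophages grown from bone marrow of wild-type (WT) or p53 knockout (KO) mice in 10 ng/mL M-CSF for 6 days and then left as they were (M0), or exposed for 24 h to 100 ng/mL LPS with 50 ng/mL IFN-γ (M1) or to 10 ng/mL of each of IL-4 and IL-13 (M2). Titles, descriptions and the design text separate WT from KO, although the genotype field calls all these libraries wild-type. The sources used here do not give ages, the number of donor animals, whether animals were pooled or whether replicates were separate cultures, so p-values measure the spread between these libraries, which may be technical.

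In resting cells, NF-kB dimers are kept in the cytoplasm by IkB proteins. Signals from Toll-like receptors, the TNF receptor or CD40 activate the IkB kinase complex (IKK), IkB is degraded, and the dimers enter the nucleus. In the canonical arm the main dimer is p50 (from Nfkb1) with RelA (Rela) or c-Rel (Rel), and in the non-canonical arm p52 (from Nfkb2) pairs with RelB (Relb). Several of these genes are themselves NF-kB targets in macrophages: Nfkbia encodes IkBα, which is made anew after activation and ends it, Nfkbie encodes IkBε, Tnfaip3 encodes A20, which takes ubiquitin chains off signalling proteins upstream of IKK, and Nfkbiz encodes IkBζ, a nuclear protein needed for a subset of secondary inflammatory genes. Malt1 encodes a protease and scaffold that joins Bcl10 and CARD proteins in signalling to IKK.

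The DNA in front of 3 of these genes is shown because they are the textbook cases of NF-kB genes that carry kB sites of their own. Each sequence is the 250 bases before an annotated start site, 5′ to 3′ on the strand of the gene, from RefSeq (GRCm38.p6): Nfkbia at chr12:55492648-55492897 (- strand), Nfkb2, the first of 3 starts, at chr19:46304487-46304736 (+ strand), and Tnfaip3, the first of 2 starts, at chr10:19015411-19015660 (- strand). Capitals mark matches to the 10-base kB consensus on either strand.
Nfkbia: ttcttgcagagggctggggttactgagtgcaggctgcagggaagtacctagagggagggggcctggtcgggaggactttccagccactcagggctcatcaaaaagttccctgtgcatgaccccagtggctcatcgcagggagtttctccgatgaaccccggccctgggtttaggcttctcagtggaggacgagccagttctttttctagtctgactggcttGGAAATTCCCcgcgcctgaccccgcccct
Nfkb2: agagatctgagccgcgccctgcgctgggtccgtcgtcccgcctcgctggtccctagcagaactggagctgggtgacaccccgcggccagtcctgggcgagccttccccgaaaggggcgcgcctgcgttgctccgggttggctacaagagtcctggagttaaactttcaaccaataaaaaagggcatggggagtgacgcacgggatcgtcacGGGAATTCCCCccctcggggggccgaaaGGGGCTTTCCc
Tnfaip3: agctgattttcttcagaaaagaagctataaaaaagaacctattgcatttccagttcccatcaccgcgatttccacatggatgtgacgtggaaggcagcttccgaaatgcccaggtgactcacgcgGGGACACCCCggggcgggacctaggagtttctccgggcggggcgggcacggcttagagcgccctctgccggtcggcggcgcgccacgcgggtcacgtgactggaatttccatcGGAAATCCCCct
The search used windows from 250 bases before to 50 bases after the start site, which is counted as base 1, with no base 0. The Nfkbia window held 1 match, at -29 to -20 on the opposite strand. In Tnfaip3 there were 2 separate stretches, at -125 to -116 and at -12 to -3. In Nfkb2 4 overlapping or neighbouring matches formed 2 stretches, from -39 to -29 and from -11 to -2. Rel had a stretch from -92 to -82 and Nfkbie a match at -106 to -97, while the Rela window held no match. RefSeq windows were found for these 6 genes, with 9 start sites in all, of which 7 held a match, and 1480 of 32851 promoter windows of that length (4.51%) held at least 1. A match is a string of letters and not a measured binding site.

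**Figure D1:**
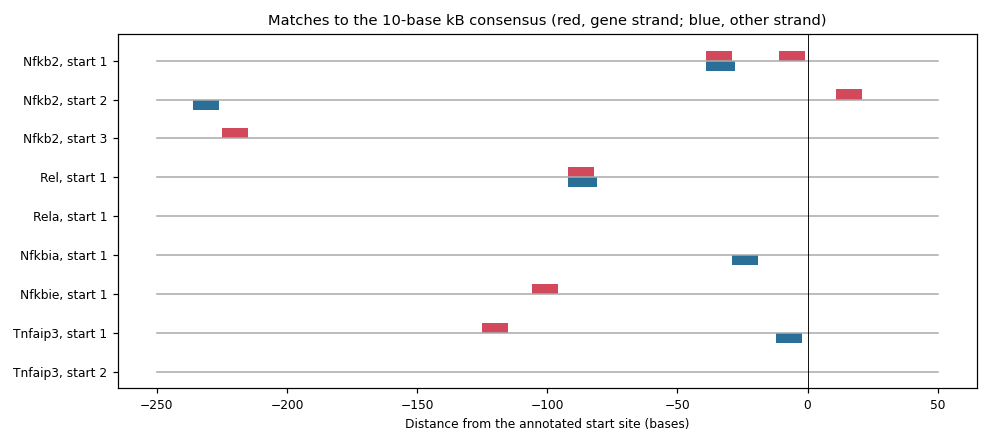
Position of matches to the kB consensus in the 9 promoter windows of 6 genes, with the distance from the annotated start site in bases on the horizontal axis. Red blocks are matches on the strand of the gene and blue blocks on the other strand; 7 of 9 windows hold a match, and the windows of Rela and of the second start of Tnfaip3 hold none.

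Total counts were 15532373 to 19417581 per library in the 12 peritoneal libraries and 3081707 to 4645148 in the 36 bone marrow-derived libraries. Levels are given as CPM, counts scaled to a common library total, after TMM scaling within each of these 2 sets, and are not compared between the sets, nor between genes, since a 3′ read count is not scaled by length. All 10 genes passed the filter on low counts in both sets. In the bone marrow-derived libraries the smallest count was 11 for Tnfaip3, 12 for Malt1 and 14 for Rel, so these 3 have the least precise values. Trp53, the gene targeted in the knockout, was at 4.79 to 13.2 CPM over 18 WT libraries and at 2.70 to 9.11 over 18 KO libraries, ranges that overlap; where the 3′ reads lie relative to the deleted part is not given, so this does not check the labels. The summed level of 10 macrophage markers was 29067 to 41123 CPM in the peritoneal and 10826 to 53694 in the bone marrow-derived libraries. In the M1 groups it was 48445 to 53694 in WT and 16986 to 29983 in KO.

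Some libraries stood apart from the other 2 of their group. WT M0 vehicle replicate 1 had 1075 CPM of Nfkbia against 2060 and 2107, 63.9 of Nfkbiz against 183 and 179, 24.5 of Nfkb2 against 65.2 and 78.0, and 5.61 of Nfkbie against 21.7 and 21.0. WT M2 vehicle replicate 1 and KO M2 vehicle replicate 3 had summed neutrophil markers of 3720 and 3036 CPM, against 319 to 589 in the other 4 M2 vehicle libraries. Most of these 2 sums was S100a8 and S100a9. Ly6g was at 1.11 and 0.992 CPM in the 2 libraries and at 0.0 in the other 4. Over those 6 libraries Elane was at no more than 1.35 CPM, Mpo at 0.950 to 18.5 and Cxcr2 at 2.92 to 10.4. Cxcr2 was highest in KO M2 replicate 3, and Elane and Mpo in KO M2 replicate 2. WT M2 vehicle replicate 1 was also at 3421 CPM of Saa3, against 201 and 174. KO M0 replicates 1 and 2 with AP-3-84 had summed M1 markers (10 genes) of 2090 and 1791 CPM against 472 in replicate 3, and 51.7 to 135 in the vehicle group. Saa3 made up most of the treated sums, at 1715, 1557 and 387 CPM, while Nos2 was at no more than 0.505. Where the call of a gene named below was lost without any of these libraries, that is said beside it.

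**Figure D2:**
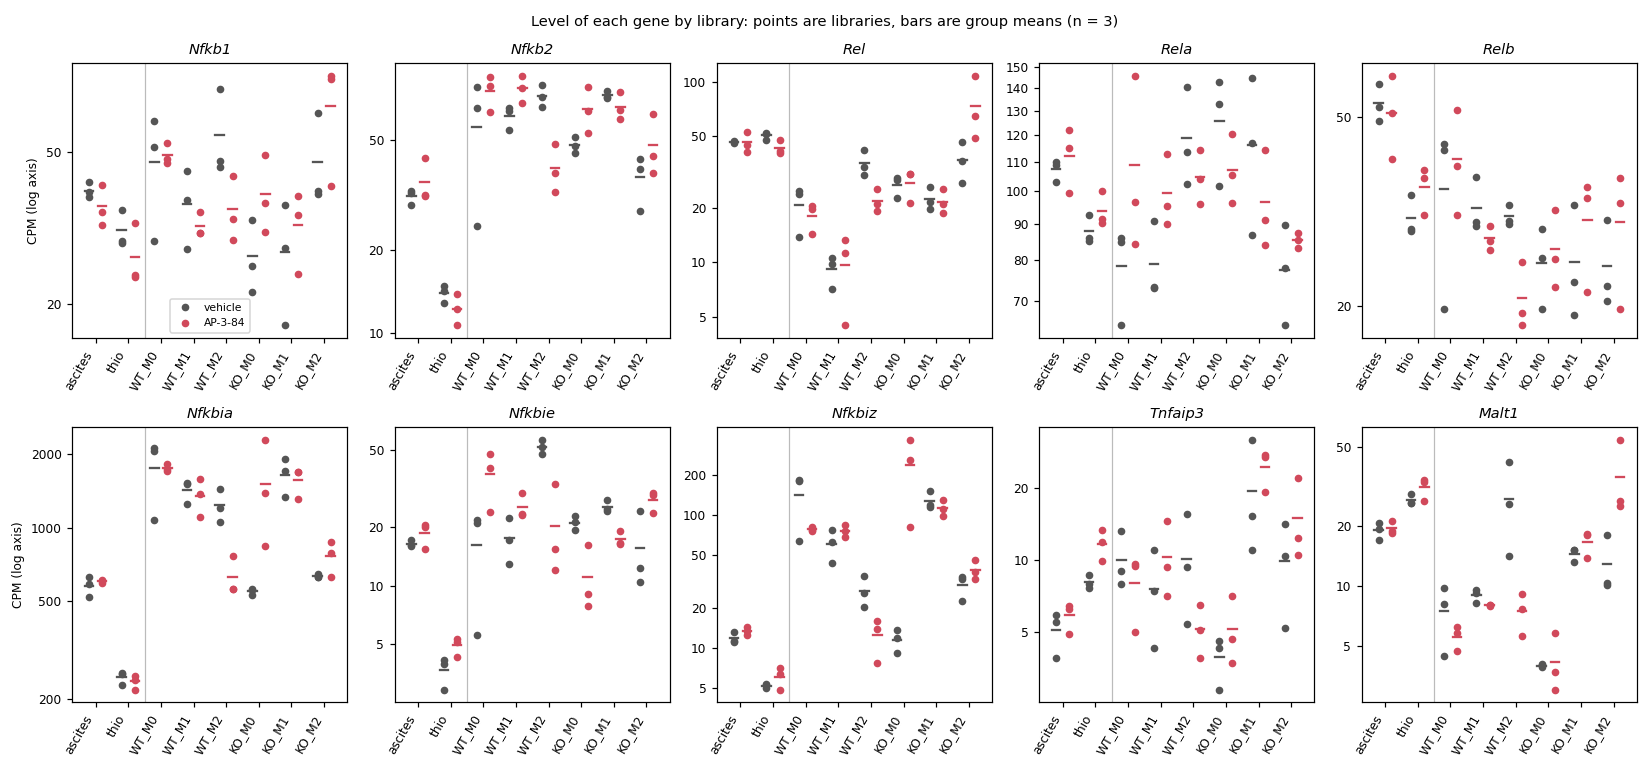
CPM of the 10 genes (log axis) in every library, with 8 populations along the horizontal axis, vehicle in grey and AP-3-84 in red; bars are group means (n = 3) and the vertical line separates the peritoneal from the bone marrow-derived set, whose levels are not comparable. Nfkbiz spans 7.77 to 368 CPM over the bone marrow-derived set, and Rela 64.6 to 146.

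The 10 genes differed in how far they varied over the 36 bone marrow-derived libraries. Rela ranged 2.26-fold between its lowest and highest library, Relb 2.83-fold, Nfkb2 3.51-fold and Nfkb1 4.51-fold, whereas Rel ranged 24.1-fold. Nfkbiz had the widest range, 47.4-fold, followed among the remaining genes by Malt1 (17.9-fold), Tnfaip3 (11.0-fold) and Nfkbie (10.0-fold). Nfkbia ranged 4.29-fold, from 531 to 2281 CPM. Part of such a range is counting error for the genes with few counts.

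The comparison of vehicle groups asks how polarization and genotype set these genes before any compound. Polarization of WT cells moved Rel, Rela, Nfkbie and Nfkbiz. Going from M0 to M1, 0 genes rose and 2 fell of the 10, with 15.5% of all 11779 genes called (8.01% higher, 7.49% lower) at an adjusted p under 0.05 in edgeR's quasi-likelihood test. Rel stood at 13.9, 23.9 and 24.8 CPM in WT M0 and at 9.84, 7.15 and 10.6 in WT M1, so the 2 groups did not overlap. It fell by 1.18 on the log2 scale (SE 0.31, edgeR adjusted p = 0.00797), with an adjusted p of 0.0543 when WT M1 replicate 2 was left out. Nfkbiz went from 63.9, 183 and 179 CPM to 62.3, 76.8 and 44.1, which was -1.22 in log2 terms (SE 0.37, edgeR adjusted p = 0.0228). The WT M0 library that stood apart overlapped the WT M1 values, and the call failed in 5 of 13 alternatives, at edgeR adjusted p-values of up to 0.15, among them without WT M0 replicate 2 or 3 (0.107 each) and without WT M1 replicate 1 (0.061) or 3 (0.114). Nfkbia, at 1747 ± 583 CPM in WT M0 and 1419 ± 154 in WT M1 (SD, n = 3), did not pass.

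From M0 to M2 in WT cells, 3 genes rose and 1 fell of the 9 tested, with 23.4% of all genes called (12.7% higher, 10.7% lower). Nfkbie rose from 5.61, 21.7 and 21.0 CPM to 56.2, 51.6 and 47.5, every M2 library lying above every M0 library. This was a 3.23-fold rise (log2 1.69, SE 0.36, edgeR adjusted p = 0.000895, at most 0.0321 over 13 alternatives). Nfkbiz fell from the M0 values above to 34.8, 25.9 and 20.6 CPM, 5.22-fold lower (edgeR adjusted p = 4.72e-05, at most 0.0118 over the alternatives). Rel rose to 30.3, 41.9 and 33.9 CPM (log2 0.76, SE 0.28, edgeR adjusted p = 0.0464) and Rela from 64.6, 85.8 and 84.9 to 114, 102 and 141 CPM (0.60, SE 0.19, edgeR adjusted p = 0.0215). Both were above every M0 library. The Rel call was lost in 6 of 13 alternatives and the Rela call in 3, each of them with total-count scaling (edgeR adjusted p = 0.164 and 0.141), without WT M0 replicate 1 (0.227 and 0.118) and without WT M2 replicate 3 (0.0795 and 0.131); Rel also without WT M0 replicate 2 (0.0699) or WT M2 replicate 2 (0.162). Malt1, with no test, was at 4.49, 9.80 and 8.18 CPM in WT M0 and at 42.0, 25.9 and 14.2 in WT M2.

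In KO cells M1 polarization raised Nfkbia, Nfkbiz, Tnfaip3, Malt1 and, less stably, Nfkb2. From M0 to M1 in KO cells 5 genes rose and 0 fell of the 10, with 44.5% of all genes called (22.8% higher, 21.8% lower). Nfkbia went from 558, 560 and 531 CPM to 1703, 1894 and 1329, a 2.99-fold rise (log2 1.58, SE 0.24, edgeR adjusted p = 5.99e-06). Nfkbiz went from 13.6, 9.23 and 11.9 CPM to 119, 151 and 115, an 11.0-fold rise (log2 3.46, SE 0.42, edgeR adjusted p = 3.51e-07). In both, the lowest M1 library was over the highest M0 library by a wide margin. Tnfaip3 rose from 2.88, 4.31 and 4.60 CPM to 11.0, 31.6 and 15.2 (log2 2.29, SE 0.45, edgeR adjusted p = 0.000124). Malt1 rose from 3.93, 4.00 and 4.06 CPM to 13.2, 15.2 and 15.2 (log2 1.85, SE 0.36, edgeR adjusted p = 0.000113). All 4 calls held in 13 of 13 alternatives, and for each gene the M1 and M0 values did not overlap. The share of all genes without overlap was not counted for this step. Nfkb2, the precursor of p52, rose less, from 44.8, 51.4 and 47.6 CPM to 71.1, 75.4 and 71.6 (log2 0.60, SE 0.25, edgeR adjusted p = 0.0457), and that call was lost in 8 of 13 alternatives, including the removal of any of the 6 libraries (edgeR adjusted p 0.0653 to 0.115). Summed macrophage markers were 41604 to 48901 CPM in KO M0 and 21010 to 29983 in KO M1. Summed neutrophil markers were 511 to 633 and 960 to 2358, and neither pair of ranges overlapped. Not all macrophage markers fell. Csf1r went from 4947, 6812 and 8054 CPM to 1512, 1332 and 1663, but Adgre1 from 485, 504 and 466 to 1261, 1614 and 1200. The part of these markers in the rises above was not tested.

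The step from M0 to M1 differed between genotypes for 4 of the 10 genes by a test of the difference itself, with 20.7% of all genes called (11.2% higher, 9.51% lower). The difference, KO minus WT on the log2 scale, was 4.68 for Nfkbiz (SE 0.55, edgeR adjusted p = 2.18e-06), 2.70 for Tnfaip3 (SE 0.62, edgeR adjusted p = 0.00207), 1.88 for Nfkbia (SE 0.34, edgeR adjusted p = 0.000179) and 1.58 for Malt1 (SE 0.50, edgeR adjusted p = 0.0228). The first 3 held in 19 of 19 alternatives, and Malt1 did not without WT M0 vehicle replicate 2 (edgeR adjusted p = 0.0721). In M0 Nfkbia stood at 1747 ± 583 CPM in WT and 550 ± 16.2 in KO, and in M1 at 1419 ± 154 in WT and 1642 ± 287 in KO (SD, n = 3), overlapping only in M1.

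From M0 to M2 in KO cells, 3 genes rose and 1 fell of the 9 tested, with 38.0% of all genes called (20.1% higher, 18.0% lower). Nfkbiz rose to 33.2, 22.5 and 34.5 CPM (log2 1.36, SE 0.42, edgeR adjusted p = 0.0114), the opposite direction to its fall in WT cells, although the 2 M2 groups overlapped in level. Tnfaip3 rose to 10.3, 5.18 and 14.1 CPM (log2 1.32, SE 0.46, edgeR adjusted p = 0.0239). Nfkb1, the precursor of p50, rose from 33.3, 21.5 and 25.2 CPM to 63.4, 38.7 and 39.4 (log2 0.82, SE 0.29, edgeR adjusted p = 0.0259). Rela fell from 102, 133 and 143 CPM to 89.7, 77.9 and 64.7 (log2 -0.70, SE 0.19, edgeR adjusted p = 0.00465), and this call alone held in 13 of 13 alternatives. Nfkbiz was lost without KO M0 replicate 2 (edgeR adjusted p = 0.053), Tnfaip3 without KO M0 replicate 1 (0.0959) or KO M2 replicate 3 (0.149), and Nfkb1 without KO M0 replicate 2 (0.115) or 3 (0.0869) or KO M2 replicate 1 (0.162). The summed macrophage markers of KO M2 vehicle were 26328, 13923 and 10826 CPM, below the 41604 to 48901 of KO M0; their part in these changes was not tested. The markers in the sum did not move alike. Adgre1 was at 485, 504 and 466 CPM in KO M0 and at 466, 379 and 486 in KO M2, which overlapped. Csf1r went from 4947, 6812 and 8054 CPM to 2447, 1870 and 1268. In bulk RNA, fewer cells of a type, less RNA per cell and a change in the marker genes themselves cannot be told apart.

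**Figure D3:**
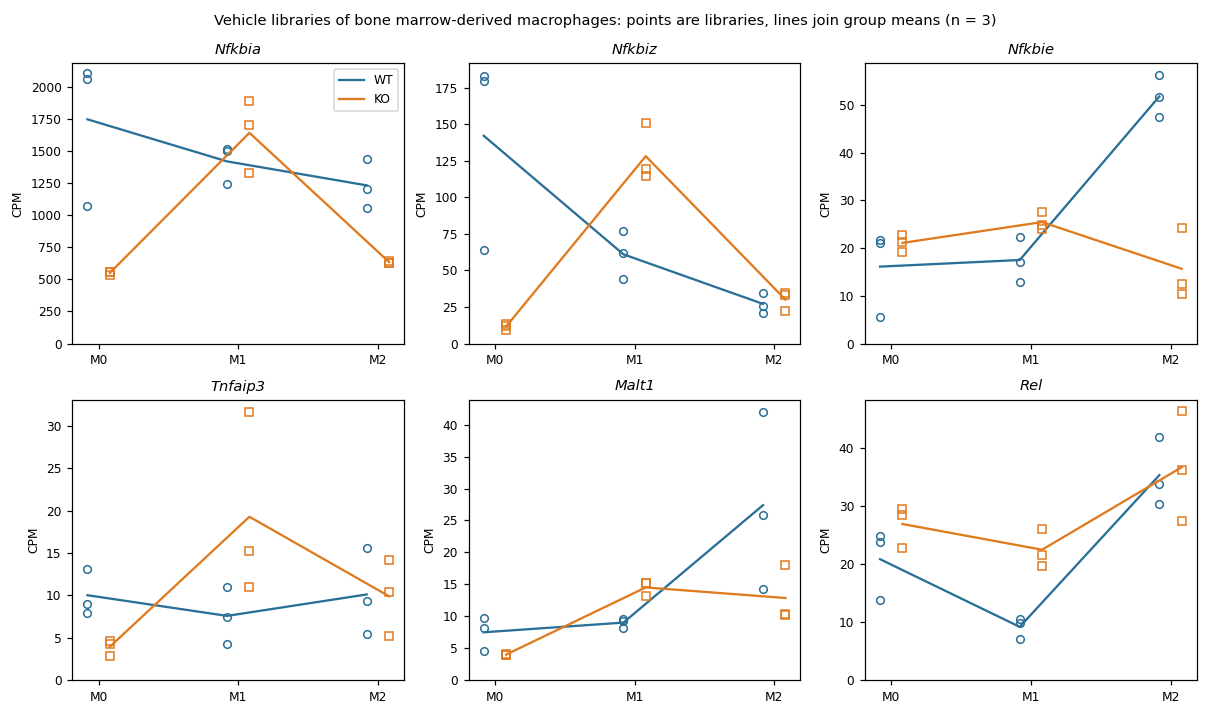
CPM of 6 genes in the vehicle libraries of bone marrow-derived macrophages by polarization; circles are WT and squares KO libraries, and lines join group means (n = 3). Nfkbia and Nfkbiz are lowest in KO M0, at 531 to 560 and 9.23 to 13.6 CPM, and the highest Nfkbie values are those of WT M2, 47.5 to 56.2.

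Set directly against WT, unpolarized KO cells had less Nfkbiz, Nfkbia, Tnfaip3 and Nfkb1 and more Rela. In M0 vehicle, 1 gene was higher and 4 were lower of the 10, with 33.2% of all genes called (16.4% higher, 16.8% lower), and this comparison uses the same KO M0 libraries as the steps above. Nfkbiz was 12.2-fold lower in KO (log2 -3.61, SE 0.42, edgeR adjusted p = 6.47e-07) and Nfkbia 3.18-fold lower (log2 -1.67, SE 0.24, edgeR adjusted p = 7.35e-06). For both genes every KO library lay below every WT library, the WT library that stood apart included, and the calls held in 13 of 13 alternatives. The share of all genes without overlap was not counted for this comparison. Tnfaip3 was lower, at 3.93 ± 0.919 CPM against 10.0 ± 2.76 (SD, n = 3; log2 -1.35, SE 0.46, edgeR adjusted p = 0.0236), and so was Nfkb1 (log2 -0.81, SE 0.29, edgeR adjusted p = 0.0295), while Rela was higher (log2 0.68, SE 0.19, edgeR adjusted p = 0.00667). Each of these 3 calls was lost without at least 1 library: Tnfaip3 without WT replicate 2 (edgeR adjusted p = 0.102) or KO replicate 1 (0.0896), Rela without WT replicate 1 (0.057) or KO replicate 3 (0.051), and Nfkb1 without WT replicate 2 (0.159) or 3 (0.0764) or KO replicate 2 (0.115) or 3 (0.0876). Malt1, at 4.00 ± 0.0634 CPM in KO and 7.49 ± 2.72 in WT (SD, n = 3), did not pass (edgeR adjusted p = 0.0652).

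After M1 polarization KO cells had more Rel and Tnfaip3 than WT cells. In M1 vehicle 2 genes were higher in KO and 0 lower of the 10, with 11.6% of all genes called (5.93% higher, 5.71% lower). Rel, at 19.8, 26.1 and 21.6 CPM in KO against 9.84, 7.15 and 10.6 in WT, was 2.44-fold higher (log2 1.29, SE 0.31, edgeR adjusted p = 0.0064, at most 0.0462 over 13 alternatives) and its groups did not overlap. Tnfaip3, at 11.0, 31.6 and 15.2 CPM against 11.0, 7.42 and 4.28, was 2.56-fold higher (log2 1.36, SE 0.42, edgeR adjusted p = 0.031). Those 2 groups overlapped at their edges, and the Tnfaip3 call was lost in 4 of 13 alternatives, among them without WT M1 replicate 2 (edgeR adjusted p = 0.092) or 3 (0.15) or KO M1 replicate 2 (0.201). The macrophage marker sums given above were lower in KO M1 than in WT M1; their part was not tested.

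The comparison with vehicle asks which of these genes respond to AP-3-84, and in 6 of the 8 populations none passed the test. In ascites cells, thioglycollate cells, WT M0, WT M1 and KO M1, 0 of 10 genes passed, and in KO M2 0 of 9, by edgeR's test. Over all genes 1.79%, 4.32%, 0.144%, 0.017%, 0.0% and 0.0509% were called in these 6 comparisons, in that order. By direction, 1.69% were higher and 0.1% lower in ascites cells, 2.51% higher and 1.82% lower in thioglycollate cells, 0.144% and 0.017% higher and 0.0% lower in WT M0 and WT M1, and 0.034% higher and 0.017% lower in KO M2. At an unadjusted p under 0.05 the counts were 0, 3, 3, 0, 0 and 2, and DESeq2 called 1 gene in KO M2 and 0 in the others. The percentages above are for edgeR's adjusted p and cannot be set beside these counts. Shares of all genes at the unadjusted threshold or by DESeq2 are not given here. The largest difference in thioglycollate cells was that of Tnfaip3, at 13.4, 11.8 and 9.84 CPM with the compound and 8.68, 7.96 and 7.59 without, which did not overlap (log2 0.53, SE 0.19, edgeR adjusted p = 0.146). In WT M0 it was Nfkbie, at 40.0, 47.7 and 24.0 CPM with the compound and 5.61, 21.7 and 21.0 without (log2 1.21, SE 0.36, edgeR adjusted p = 0.227). In KO M2, among the 9 genes tested, it was Rel, at 48.7, 64.4 and 108 CPM against 46.4, 36.3 and 27.5 (log2 1.01, SE 0.27, edgeR adjusted p = 0.134). In ascites cells log2 fold changes of the 10 genes lay between -0.14 and 0.19, each with an SE of at most 0.20.

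**Figure D4:**
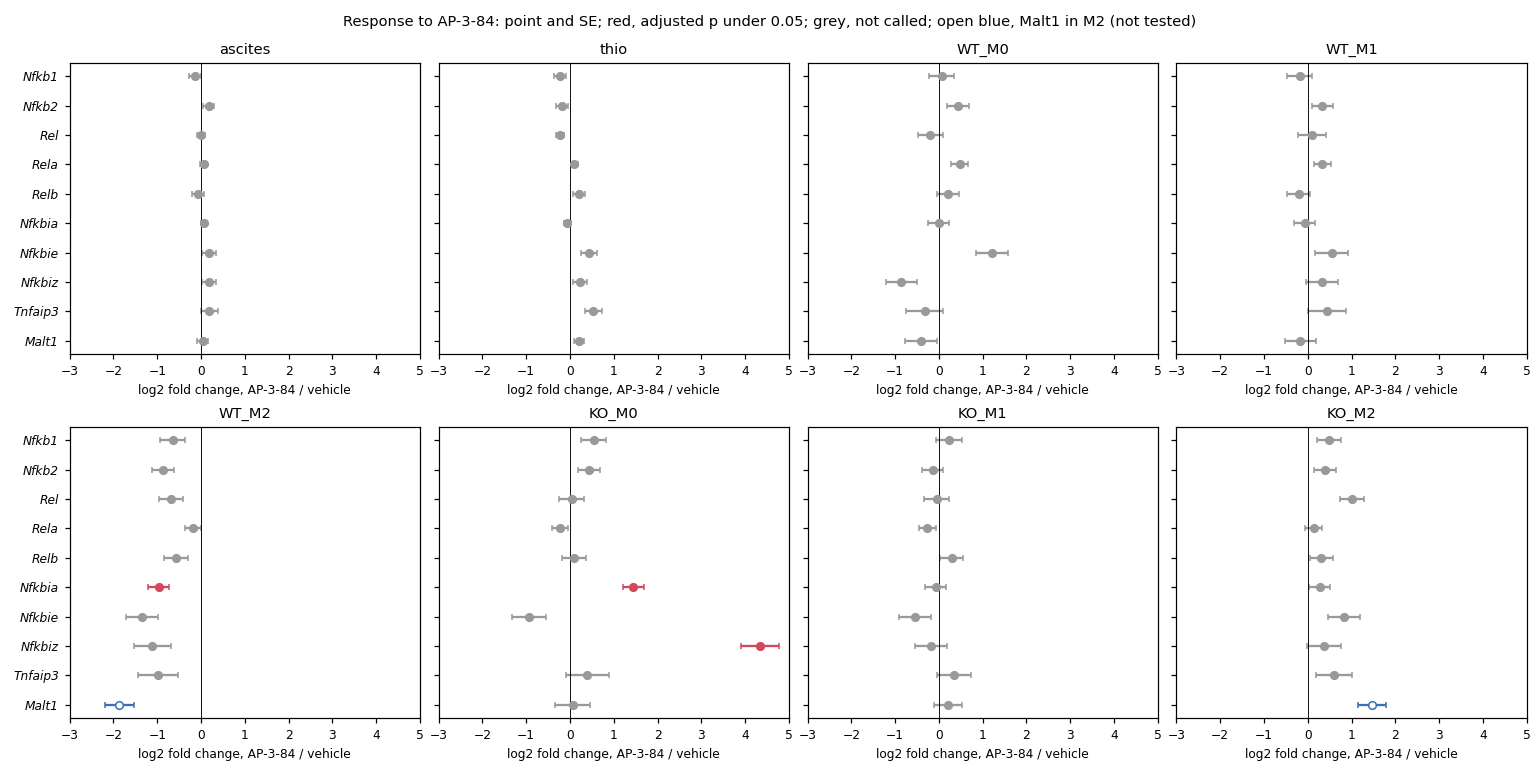
Log2 fold change of AP-3-84 over vehicle (horizontal axis) with its standard error for the 10 genes in each of 8 populations; red points passed an adjusted p under 0.05, grey points did not, and open blue points are Malt1 in M2 groups, which was not tested. Red points are Nfkbia in WT M2 (-0.97) and Nfkbia and Nfkbiz in KO M0 (1.45 and 4.34).

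In KO M0 cells the compound raised Nfkbia and Nfkbiz. Nfkbiz stood at 13.6, 9.23 and 11.9 CPM with vehicle and at 368, 260 and 81.8 with AP-3-84, so that the lowest treated library was above all vehicle libraries. This was a 20.3-fold rise (log2 4.34, SE 0.43, edgeR adjusted p = 7.61e-08). Nfkbia stood at 558, 560 and 531 CPM with vehicle and at 2281, 1379 and 841 with AP-3-84, a 2.73-fold rise (log2 1.45, SE 0.24, edgeR adjusted p = 9.52e-05). The 2 genes were highest in treated replicates 1 and 2, the libraries with the high M1 marker sums. Those sums were mostly Saa3. Saa3 and some other M1 markers are also among the NF-kB target genes listed below, so the 2 lists are not separate. Both calls held in 13 of 13 alternatives, the removal of any of the 6 libraries included. These 2 rises and 0 falls among 10 genes stand beside 20.7% of all genes called (12.1% higher, 8.57% lower). Of the other members, Nfkbie went the other way, at 9.09, 7.89 and 16.1 CPM with the compound against 21.2, 22.8 and 19.2, and did not pass (log2 -0.93, SE 0.38, edgeR adjusted p = 0.0795). Nfkb2 was at 78.1, 63.6 and 53.2 CPM against 44.8, 51.4 and 47.6, also without passing (edgeR adjusted p = 0.209). In all, every AP-3-84 library lay above every vehicle library for 3 of the 10 genes (15.4% of all genes) and below for 1 (16.7% of all genes). The treated KO M0 libraries were at 149, 87.6 and 317 CPM of summed M2 markers (9 genes), against 387 to 491 with vehicle; the part of this and of the M1 markers in the rise of Nfkbia and Nfkbiz was not tested.

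The response to AP-3-84 in M0 cells differed between genotypes for 3 of 10 genes, with 17.0% of all genes called (10.0% higher, 6.99% lower). The difference, KO minus WT on the log2 scale, was 5.20 for Nfkbiz (SE 0.56, edgeR adjusted p = 1.14e-06), 1.45 for Nfkbia (SE 0.34, edgeR adjusted p = 0.00388) and -2.15 for Nfkbie (SE 0.52, edgeR adjusted p = 0.00559), and each held in 19 of 19 alternatives. With the compound, Nfkbia was at 1727, 1808 and 1705 CPM in WT M0, inside the range of the treated KO M0 libraries. Nfkbiz in treated WT M0 was at 77.5, 75.8 and 81.8 CPM, near the lowest treated KO library. This difference, the M0 to M1 steps of KO cells and the genotype difference in M0 share the KO M0 vehicle libraries.

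In WT M2 cells the compound lowered Nfkbia, and the fitted values of the other 8 tested genes were negative too. Nfkbia stood at 1436, 1205 and 1056 CPM with vehicle and at 560, 562 and 767 with AP-3-84, with no overlap. It fell by 0.97 on the log2 scale (SE 0.24, edgeR adjusted p = 0.0347), the only call among 9 genes, with 1.21% of all genes called (0.229% higher, 0.976% lower). That call was lost in 6 of 13 alternatives: with total-count scaling (edgeR adjusted p = 0.054), with the replicate number as a block (0.0514), and without vehicle replicate 1 (0.146) or 2 (0.0778) or treated replicate 1 (0.221) or 2 (0.202). Nfkbie went from 56.2, 51.6 and 47.5 CPM to 15.4, 12.1 and 33.4 (log2 -1.35, SE 0.36, edgeR adjusted p = 0.0542). Nfkb2 went from 71.8, 65.7 and 79.5 CPM to 32.4, 38.1 and 48.4 (log2 -0.87, SE 0.25, edgeR adjusted p = 0.0816). For 7 of the 9 genes every treated library lay below every vehicle library, and 8.78% of all genes did so; Rela and Tnfaip3 overlapped. The median log2 fold change of the 9 genes was -0.87 and that of all genes 0.000985. DESeq2 called 3 of the 9, beside 2.32% of all genes. Vehicle replicate 1 is the library with high Saa3 and S100a8; its Nfkbia was the highest of the 3, and without it the Nfkbia call was lost, as given above. Summed M2 markers (9 genes) were 11352, 11312 and 9274 CPM with vehicle and 6116, 7203 and 6618 with AP-3-84, and summed M1 markers (10 genes) 5368, 797 and 410 against 152, 177 and 185. Both sums were lower in every treated library, but not every marker was. Arg1 was at 2240, 1003 and 1140 CPM with vehicle and at 1543, 1714 and 1357 with AP-3-84, which overlapped. Mrc1, at 1505, 963 and 891 against 1370, 1250 and 1192, and Retnla, at 456, 4299 and 2661 against 935, 1485 and 1038, overlapped too. The part of the 2 sums in the fall of Nfkbia was not tested.

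Against WT M0, the response of WT M2 cells was lower for Nfkbie by 2.56 on the log2 scale (difference -2.56, SE 0.51, edgeR adjusted p = 0.0388), the only 1 of 9 genes to pass, with 0.136% of all genes called (0.017% higher, 0.119% lower). It failed in 10 of 19 alternatives, at edgeR adjusted p-values of up to 0.213, among them without WT M0 vehicle replicate 1 (0.116) or WT M2 vehicle replicate 1 (0.0615), which stood apart. No gene of the 10 passed in the differences of response between ascites and thioglycollate cells, between KO M1 and WT M1, or between WT M1 and WT M0 (0.118%, 0.00849% and 0.0255% of all genes called; the first 0.0767% higher and 0.0413% lower, the second lower and the third higher only). At an unadjusted p under 0.05 these 3 comparisons had 0, 2 and 1 of the 10 genes, and DESeq2 called 0 in each. The share of all genes at that unadjusted threshold is not given here, so these counts have no background beside them.

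Levels of the 2 genotypes in M2 cells are described here without a test. Malt1, chosen for this, was at 42.0, 25.9 and 14.2 CPM in WT vehicle, 7.72, 5.63 and 9.17 in WT with AP-3-84, 18.0, 10.4 and 10.2 in KO vehicle, and 25.2, 26.9 and 54.4 in KO with AP-3-84. KO minus WT was thus -1.10 on the log2 scale (SE 0.31) with vehicle, where the groups overlapped, and 2.24 (SE 0.33) with the compound, where they did not. The compound's log2 fold change was -1.87 (SE 0.33) in WT and 1.47 (SE 0.31) in KO. Rel showed no gap in vehicle (35.4 ± 5.94 CPM in WT and 36.7 ± 9.46 in KO; SD, n = 3), but with the compound it was at 21.0, 19.3 and 25.6 in WT and at 48.7, 64.4 and 108 in KO. With vehicle, every KO library was below every WT library for Nfkb2, Rela, Nfkbia and Nfkbie, with log2 differences of -0.98, -0.62, -0.96 and -1.73; over all genes 9.27% were below in this way and 9.14% above. With AP-3-84, every KO library was above every WT library for Rel, Nfkbiz and Tnfaip3 (1.75, 1.63 and 1.54) and below for Rela (-0.30). Over all genes 15.7% were above and 16.9% below. Malt1 (2.24) was above as well, but it was chosen on its M2 levels. The other members overlapped in each case. The difference of the 2 responses, KO minus WT, was 3.34 for Malt1, which was chosen on its M2 levels. For the other 9 genes it was positive as fitted, and smallest for Rela (0.32).

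**Figure D5:**
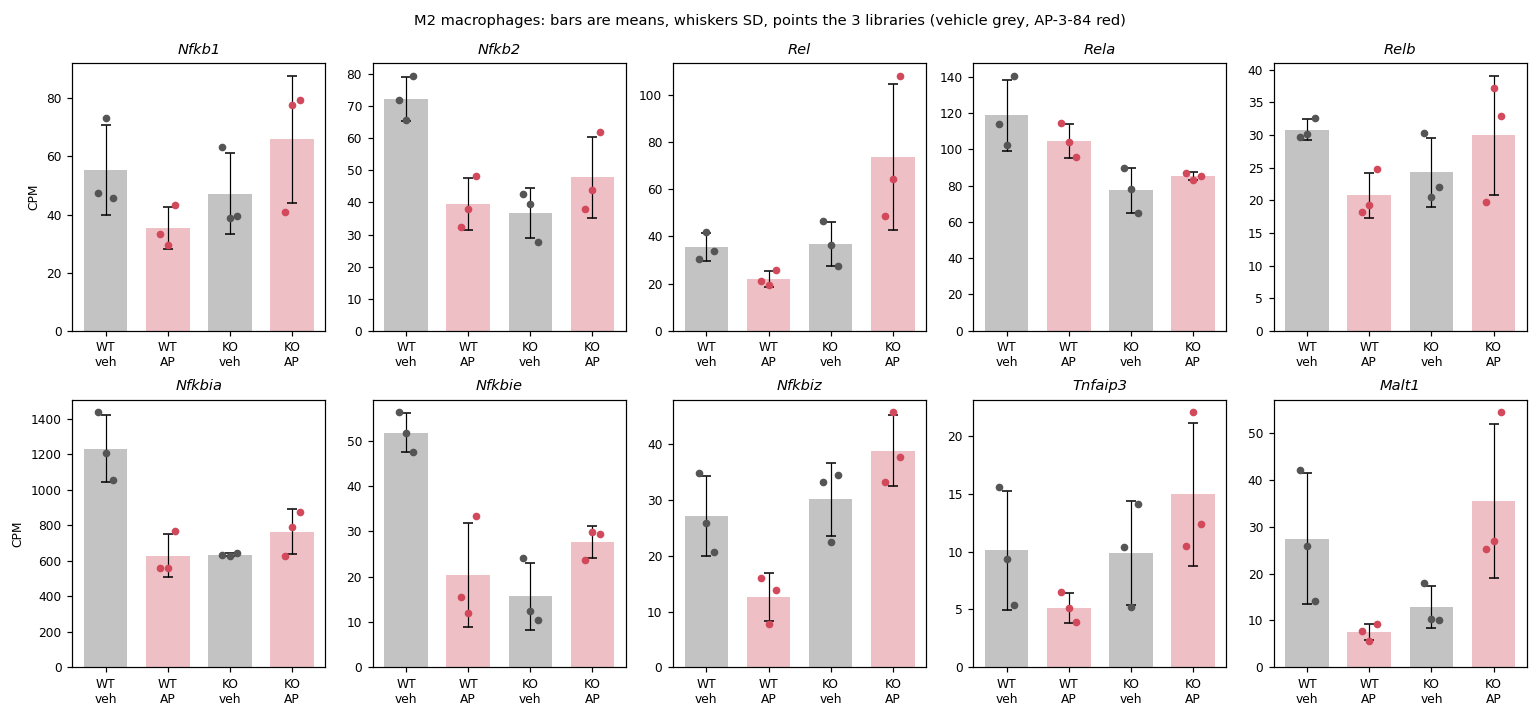
CPM of the 10 genes in M2 macrophages, WT and KO, with vehicle (grey) or AP-3-84 (red); bars are means, whiskers the SD and points the 3 libraries. In WT the treated Nfkbia libraries lie at 560 to 767 CPM below vehicle at 1056 to 1436, and the treated KO libraries of Malt1, at 25.2 to 54.4, lie above those of WT, at 5.63 to 9.17.

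Among the peritoneal cells, ascites macrophages had more of 7 of the 10 genes and less of 2 than thioglycollate macrophages, with 33.7% of all genes called (20.3% higher and 13.4% lower). Nfkbie stood at 17.1, 16.2 and 16.0 CPM in ascites and at 3.96, 4.13 and 2.93 in thioglycollate vehicle libraries, 4.48-fold higher (log2 2.16, SE 0.17, edgeR adjusted p = 1.59e-08). Nfkbia stood at 626, 588 and 520 CPM against 253, 229 and 255, 2.35-fold higher (log2 1.24, SE 0.07, edgeR adjusted p = 3.6e-10). Nfkbiz (log2 1.18, SE 0.16), Nfkb2 (1.17, SE 0.13) and Relb (0.80, SE 0.13) were higher as well, with edgeR adjusted p-values of 1.41e-05, 1.93e-06 and 0.000157. These 5 calls held in 13 of 13 alternatives. Both partners of the non-canonical arm, Nfkb2 and Relb, were thus among the higher genes, at 31.3 ± 1.97 and 53.3 ± 4.92 CPM in ascites and 13.9 ± 1.03 and 30.7 ± 3.13 in thioglycollate cells (SD, n = 3).

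Rela and Nfkb1, the main canonical pair, were higher in ascites by smaller log2 steps, 0.29 (SE 0.08, edgeR adjusted p = 0.00724) and 0.35 (SE 0.13, edgeR adjusted p = 0.0474). Rel did not pass (-0.12, SE 0.10, edgeR adjusted p = 0.402), although every ascites library lay below every thioglycollate library. Tnfaip3, at 3.89, 5.91 and 5.53 CPM in ascites and 8.68, 7.96 and 7.59 in thioglycollate cells, was lower (log2 -0.65, SE 0.19, edgeR adjusted p = 0.0137), and so was Malt1, at 20.7, 19.4 and 17.1 CPM against 26.2, 26.2 and 29.0 (log2 -0.51, SE 0.12, edgeR adjusted p = 0.00214). The Nfkb1 call was lost in 8 of 13 alternatives, among them without each of the ascites replicates (edgeR adjusted p 0.0735 to 0.139) and without thioglycollate replicate 2 (0.155) or 3 (0.166), and the Tnfaip3 call without ascites replicate 1 (0.0773) or thioglycollate replicate 1 (0.0519). With all 48 libraries in a joint fit, Nfkb1, Rela, Tnfaip3 and Malt1 were not called (edgeR adjusted p = 0.439, 0.323, 0.149 and 0.105). Strain, tumour, stimulus and time differ together between these groups and cannot be told apart. Summed markers of ovarian epithelial or ID8 cells (7 genes) were 184 to 218 CPM in ascites and 4.67 to 6.13 in thioglycollate vehicle libraries; their part in the differences was not tested.

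The 6 bone marrow-derived vehicle groups were also put in order of their mean level. For Nfkb1, Rela, Relb and Tnfaip3 each of the 6 groups overlapped the next in the order of means. Nfkbia ran from WT M0 (1747 ± 583 CPM) over KO M1 (1642 ± 287), WT M1 (1419 ± 154) and WT M2 (1232 ± 191), neighbours that overlapped, to KO M2 (635 ± 8.94) and KO M0 (550 ± 16.2), which were apart from their neighbours (SD, n = 3). Nfkbiz ran from WT M0 (142 ± 67.8) and KO M1 (128 ± 19.7), which overlapped, to WT M1 (61.1 ± 16.4), then to KO M2 (30.1 ± 6.55) and WT M2 (27.1 ± 7.17), which overlapped, and last to KO M0 (11.6 ± 2.21). Rel was highest in KO M2 and WT M2, which overlapped, and lowest in WT M1, apart from all other groups at 9.19 ± 1.80. Nfkbie was highest in WT M2, apart from the next group, KO M1 (25.4 ± 1.80), and Malt1 was lowest in KO M0.

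The rest of the pathway was read from 3 lists: 34 genes of signalling to IKK, 19 further brakes on NF-kB and 36 NF-kB target genes. In WT M2 with AP-3-84, 9 of the 32 target genes tested fell and 0 rose, beside 0.976% of all genes lower and 0.229% higher, with a median log2 fold change of -2.12 beside 0.000985 for all genes. Tnf, the inflammatory cytokine, fell from 199 ± 91.1 to 47.9 ± 15.8 CPM (SD, n = 3; log2 -2.06, SE 0.40, edgeR adjusted p = 0.00668) and Il12b, a subunit of interleukin 12, from 9.00 ± 7.83 to 0.560 ± 0.263 (log2 -3.92, SE 0.79, edgeR adjusted p = 0.00725). The Tnf call was lost in 4 of 13 alternatives: without vehicle replicate 1 (edgeR adjusted p = 0.0509), the library with high Saa3, without treated replicate 1 (0.0546) or 2 (0.0732), and with only the groups compared (0.129). The Il12b call was lost in 3 of 12, without vehicle replicate 2 (edgeR adjusted p = 0.0616) or treated replicate 1 (0.0726) or 2 (0.063). Of 33 genes of signalling to IKK 3 fell and 0 rose, among them Cd40, the CD40 receptor (log2 -1.63, SE 0.24, edgeR adjusted p = 0.000318, at most 0.0478 over the alternatives). Of the brakes 1 of 19 fell, Traf1 (log2 -2.09, SE 0.35, edgeR adjusted p = 0.00151), a call lost with only the groups compared (0.0977). Over the alternatives other than a fold threshold and leaving out a library, the 9 target genes became 1 to 25, the 3 signalling genes 1 to 3 and the 1 brake 0 to 3, and leaving out a library gave 0 to 13, 1 to 2 and 1 to 2.

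In KO M0 with AP-3-84, 12 of 32 target genes rose and 0 fell, beside 12.1% of all genes higher and 8.57% lower, with a median log2 fold change of 1.68 beside -0.03 for all genes. Tnf rose from 16.7 ± 4.47 to 159 ± 101 CPM (SD, n = 3; log2 3.24, SE 0.43, edgeR adjusted p = 9.84e-06) and Ebi3, a cytokine subunit, from 72.9 ± 12.3 to 271 ± 140 (log2 1.89, SE 0.28, edgeR adjusted p = 1.83e-05). Of the brakes 8 of 19 rose and 0 fell. The strongest by p were Irak3, an inhibitor of Toll-like receptor signalling (log2 2.24, SE 0.31, edgeR adjusted p = 1.07e-05), and Zc3h12a, the ribonuclease Regnase-1 (log2 1.99, SE 0.30, edgeR adjusted p = 1.94e-05), the second lost with only the groups compared (0.0513). Of the genes of signalling to IKK 4 of 33 rose, among them the kinase gene Ikbke (log2 1.71, SE 0.26, edgeR adjusted p = 1.94e-05), and 1 fell. Over the alternatives other than a fold threshold and leaving out a library, the calls were 12 to 20 of the target genes, 2 to 10 of the brakes and 3 to 9 of the signalling genes, and leaving out a library gave 10 to 13, 5 to 12 and 3 to 9. In WT M0, WT M1, KO M1 and KO M2 the 3 lists together had 1 call with the compound, Gadd45b in WT M1 (log2 1.50, SE 0.24, edgeR adjusted p = 0.00258), lost in 2 of 13 alternatives. In ascites and thioglycollate cells the compound raised Ikbkg, the regulatory subunit of IKK, by log2 values of 0.47 (SE 0.10, edgeR adjusted p = 0.0253) and 0.66 (SE 0.10, edgeR adjusted p = 0.000897), the first lost in 7 of 13 alternatives and the second in a joint fit of all 48 libraries (0.263). In ascites cells it also raised the stress genes Gadd45b (log2 1.19, SE 0.09, edgeR adjusted p = 4.75e-07) and Ier3 (0.73, SE 0.11, edgeR adjusted p = 0.000768), both in 13 of 13 alternatives.

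Between vehicle groups, from M0 to M1, 13 of 32 target genes rose and 1 fell in WT, and 28 rose and 0 fell in KO, beside 15.5% and 44.5% of all genes called (8.01% and 22.8% higher), with medians of 0.94 and 4.76 on the log2 scale. Ccl5, a chemokine, rose from 9.87 ± 5.59 to 4065 ± 255 CPM in WT (SD, n = 3; edgeR adjusted p = 2.87e-07). In M0, 2 target genes were higher and 14 lower in KO than in WT (median -2.10; 16.4% of all genes higher and 16.8% lower), Tnf at 16.7 ± 4.47 against 220 ± 28.8 CPM (log2 -3.72, SE 0.44, edgeR adjusted p = 8.94e-07), and of the brakes 1 was higher and 9 lower, Irak3 at 24.3 ± 0.963 against 170 ± 42.4 CPM (log2 -2.80, SE 0.32, edgeR adjusted p = 3.23e-07). The kinase gene Map3k14, which encodes NIK of the non-canonical arm, was higher in KO M0, at 30.7 ± 11.4 against 5.35 ± 2.95 CPM (log2 2.53, SE 0.37, edgeR adjusted p = 5e-06). In M1, 12 target genes were higher in KO and 0 lower (median 0.80; 5.93% of all genes higher and 5.71% lower; 10 to 20 target genes called over the alternatives other than a fold threshold), Gadd45b at 109 ± 13.1 against 11.2 ± 1.88 CPM (log2 3.27, SE 0.24, edgeR adjusted p = 4.38e-11). Ascites cells had 20 of 30 target genes higher and 7 lower than thioglycollate cells (median 1.39; 20.3% of all genes higher and 13.4% lower). Sod2, a mitochondrial superoxide dismutase, was higher at 280 ± 7.40 against 84.3 ± 4.59 CPM (log2 1.73, SE 0.06, edgeR adjusted p = 7.74e-13), and Gadd45b lower at 11.1 ± 0.557 against 61.4 ± 1.51 (log2 -2.46, SE 0.09, edgeR adjusted p = 6.78e-13).

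Across the means of the 12 bone marrow-derived groups, the pattern of each gene was compared with those of 8421 genes by Pearson's r on log2 CPM, as a description over means that share libraries, scaling and controls. Among the members, Nfkbia was most like Nfkbiz (r = 0.86) and Nfkb2 (0.80), Tnfaip3 was most like Malt1 (0.72), and the lowest value was between Rel and Nfkbia (-0.47). Over all genes, Nfkbia was most like Fpr2 and Fpr1 (r = 0.95 and 0.93), which encode formyl peptide receptors, Nfkbiz most like Sh3bgrl (0.98), Tnfaip3 most like Ptgs2 (0.92), the inducible cyclooxygenase gene, Malt1 most like H2-M2 (0.92) and Rel most like Stxbp3 (0.94). Malt1 was chosen on its M2 levels, and the M2 groups are among the 12 means. Its values of r therefore rest in part on the levels that chose it.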

How the data were processed

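The 48 libraries were made from 100 ng of RNA with a QuantSeq 3′ kit and read as 75-base single reads, per the labels' protocols. The deposited table holds raw counts per gene made by the authors. RSEM, Bowtie2 and DESeq2 are named in the submitters' processing notes, without versions; the sources used here do not name the genome build or annotation. Each of the 48 columns matched 1 sample. Gene symbols came from a mouse name table, by gene ID.

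Counts were tested with edgeR 4.0.16 (R 4.3.3; quasi-likelihood F-test, robust, TMM scaling, filterByExpr by group, Benjamini-Hochberg adjustment over all genes, threshold 0.05). The 12 peritoneal libraries (16955 genes) and the 36 bone marrow-derived libraries (11779 genes) were fitted apart. Total counts per library, given in the report, set the precision, and the fit was tested on simulated data. With the design of M1 against M0 in WT, 98 of 11411 genes were changed by a log2 of 1 and 99 by a log2 of 2. Of these, 38.8% and 75.8% were called in the right direction. With the design of AP-3-84 in thioglycollate cells, 98 of 16478 genes were changed by each size, and 53.1% and 79.6% were called. Many changes of a log2 of 1 were thus not called in that setting. The measured comparisons called 15.5% and 4.32% of all genes, a larger part than was changed there. The share recovered in the measured comparisons was not tested. Alternatives were DESeq2 1.42.0, other scalings, no filter, a replicate block, other sets of libraries, a fold threshold and leaving out each library. Replicate numbers deviated together in all 3 pairs only for WT M2 against WT M0 vehicle (correlations 0.24, 0.191 and 0.303), where the block changed no call of these genes.

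The genes, the gene lists and the tests were chosen with earlier results of these data known. All 10 genes are named, and from each list at most 2 rises and 2 falls per comparison by lowest p, of which the text gives some. Likeness names are the top of each search. Promoter windows were read from RefSeq and searched on both strands with the 10-base kB consensus, whose overlapping matches were all counted. Tables and figures used Python 3.11.15, pandas 2.3.3, numpy 2.4.6 and matplotlib 3.10.9.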

Additional observations from a re-analysis of the deposited data

Results flagged for a closer look

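In all, 8 effects differed between groups by a test of the difference itself. The response to AP-3-84 in M0 cells, KO minus WT on the log2 scale, was 5.20 for Nfkbiz, 1.45 for Nfkbia and -2.15 for Nfkbie (edgeR adjusted p = 1.14e-06, 0.00388 and 0.00559). The step from M0 to M1 with vehicle, KO minus WT, was 4.68 for Nfkbiz, 2.70 for Tnfaip3, 1.88 for Nfkbia and 1.58 for Malt1 (edgeR adjusted p = 2.18e-06, 0.00207, 0.000179 and 0.0228). The response of WT M2 minus that of WT M0 was -2.56 for Nfkbie (edgeR adjusted p = 0.0388). The first 7 share the M0 vehicle libraries of both genotypes, and all 8 share those of WT M0.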

How the results depend on the processing

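Of 42 calls among 205 tests of these genes, 23 held in every alternative run and 19 were lost in at least 1. No log2 fold change of a called gene reversed, and 2896 of 3019 kept their side of the threshold. The number of genes called with AP-3-84 in WT M2, 1 in the report, was 2 with median-ratio size factors, 3 with DESeq2 or with all 48 libraries in 1 fit, 4 without a filter, and 0 with total-count scaling or with a call that also asks for a log2 change of 1 or more in size. In KO M2 it was 1 with DESeq2 or all 48 libraries and 2 without a filter, and in WT M0 it was 2 without a filter. For KO against WT in M1 it was 4 with DESeq2, without a filter or with all 48 libraries, and 5 with total-count scaling. The share of all genes called moved as well. It went from 11.6% to 17.8% with total-count scaling for KO against WT in M1. With AP-3-84 it went from 0.144% to 1.37% without a filter in WT M0, and from 1.21% to 2.32% with DESeq2 in WT M2. For counts in this section with no share beside them, that share is not given here. The difference of response WT M2 minus WT M0 gave 2 with DESeq2 or all 48 libraries, and 0 with total-count scaling or only the groups compared. Without a filter it gave 3, beside 1.99% of all genes called (0.136% in the main fit). WT M1 minus WT M0 gave 1 without a filter, beside 0.755% of all genes (0.0255% in the main fit). M1 against M0 in WT gave 1 with only the groups compared, beside 25.1% of all genes (15.5% in the main fit). With the limit of a log2 change of 1 or more, M2 against M0 gave 2 in each genotype, KO against WT in M0 gave 3, and ascites against thioglycollate gave 4. Without that limit, ascites against thioglycollate gave 5 with all 48 libraries in 1 fit, against 9 in the report. The cause of these changes was not tested. With the replicate number as a block, AP-3-84 in WT M2 gave 0 calls (Nfkbia, edgeR adjusted p = 0.0514), WT M2 minus WT M0 gave 0 (Nfkbie, 0.0655), and Nfkb2 was lost in M1 against M0 in KO (0.0513); the block changed no other call. The numbers do not pair these samples by the labels. Leaving out 1 library at a time gave 0 to 2 calls with AP-3-84 in WT M2, 0 to 1 in KO M2 and 0 to 2 for WT M2 minus WT M0. It gave 1 to 2 for M1 against M0 in WT and for KO against WT in M1, 2 to 4 for M2 against M0 in each genotype, and 3 to 7 for KO against WT in M0. Total-count scaling moved the median of all genes by over 0.1 on the log2 scale in some comparisons, to -0.30 for M1 against M0 in WT. Counts of 11 to 14 in the lowest libraries limit Tnfaip3, Malt1 and Rel.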
